A study of Mus musculus with 21 samples.

Results

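The genes described here encode secreted growth factors of the VEGF, angiopoietin and PDGF families. They were taken by name and not by a measured value, as *Vegfa*, *Vegfb*, *Vegfc*, *Pgf*, *Angpt1*, *Angpt2*, *Pdgfa*, *Pdgfb*, *Pdgfc* and *Pdgfd*, and all 10 were found among the 46517 Ensembl genes of the count table. Bulk RNA-sequencing was performed on left ventricle tissue from 4 control mice (Notch3 +/+) and 3 *Notch3*-/- mice, with 3 technical libraries from each heart. All mice were of the c57bl/6j strain and 10 to 14 months old, no treatment was named, and the sex of each mouse was not given. In *Notch3*-/- mice a *lacZ* insertion disrupts the *Notch3* locus in every cell of the body, so the loss was not limited to the heart or to vessels. Between 464390 and 2134368 reads were counted per control library and between 979804 and 2427783 per *Notch3*-/- library. Summed over the libraries of a heart, totals ran from 3046326 to 4638786 for control and from 3828763 to 5167869 for *Notch3*-/- mice. Mice are called control 1 to 4 and *Notch3*-/- 1 to 3. Control 1 and 2 had labels beginning with X and the other 5 mice labels beginning with k, and what the prefix stands for was not stated.

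VEGF family ligands bind the receptors FLT1, KDR and FLT4 on endothelial cells and drive the growth and permeability of blood and lymphatic vessels. Angiopoietins act on the endothelial receptor TEK, where ANGPT1 keeps vessels quiescent and ANGPT2, released by endothelial cells, can oppose it. PDGF ligands signal through PDGFRA and PDGFRB on mesenchymal cells, and endothelial PDGFB recruits the pericytes and vascular smooth muscle cells in which Notch3 is the predominant Notch receptor.

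The targeted gene, *Notch3*, had 174, 200, 245 and 185 counts in control 1 to 4 and 22, 36 and 25 counts in *Notch3*-/- 1 to 3. Every *Notch3*-/- heart was below every control heart, as the genotype labels require. The tissue label was compared with 7 cardiomyocyte markers, all of which were expressed in every heart. Their summed level was 26472, 18903, 22110 and 25266 TMM-normalized CPM (a gene's share of the counts, per 1e+06) in control hearts and 26578, 17107 and 18551 CPM in *Notch3*-/- hearts, with *Ttn* the most abundant. Hepatocyte markers did not follow the tissue label. Their summed level was 41.8, 132, 9.88 and 20.4 CPM in control 1 to 4 and 4591, 7552 and 118 CPM in *Notch3*-/- 1 to 3. *Alb* was the most abundant of the 9 hepatocyte genes (with *Ahsg*, *Ttr*, *Apoa1*, *Hpx*, *Apoh*, *Cps1*, *Fgb* and *Tat*), all with higher estimates and unadjusted p-values below 0.05 and none called. By these summed levels *Notch3*-/- 1 and 2 stood apart from the other 5 hearts.

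Levels of different genes were compared as CPM per kilobase of merged exons. *Vegfb*, a ligand of FLT1 that is abundant in oxidative muscle, was the most abundant member in control hearts, at 86.4 ± 6.95 CPM per kilobase (SD, n = 4). This was above 95.4% of the genes tested. *Angpt1* followed at 11.2 ± 6.33 and *Pdgfd* at 10.9 ± 1.91 CPM per kilobase (SD, n = 4). *Vegfa*, the main angiogenic ligand, was next in order at 6.45 ± 2.30 CPM per kilobase (SD, n = 4). *Pdgfa*, *Vegfc*, *Pdgfb*, *Pgf* and *Angpt2* lay between 5.19 and 2.37 CPM per kilobase, and *Pdgfc* was lowest at 0.707 ± 0.224 (SD, n = 4). Only *Vegfb* and *Angpt1*, and *Angpt2* and *Pdgfc*, were neighbours in this order whose control mice did not overlap. From *Angpt1* to *Angpt2*, the control mice of each member overlapped those of the next in order. In *Notch3*-/- hearts *Vegfb* was again first, at 59.1 ± 14.2 CPM per kilobase (SD, n = 3), and *Pdgfc* again last. *Angpt2* was at rank 9 in control hearts and at rank 5 in *Notch3*-/- hearts, where it had 4.49 ± 1.97 CPM per kilobase (SD, n = 3).

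**Figure D1:**
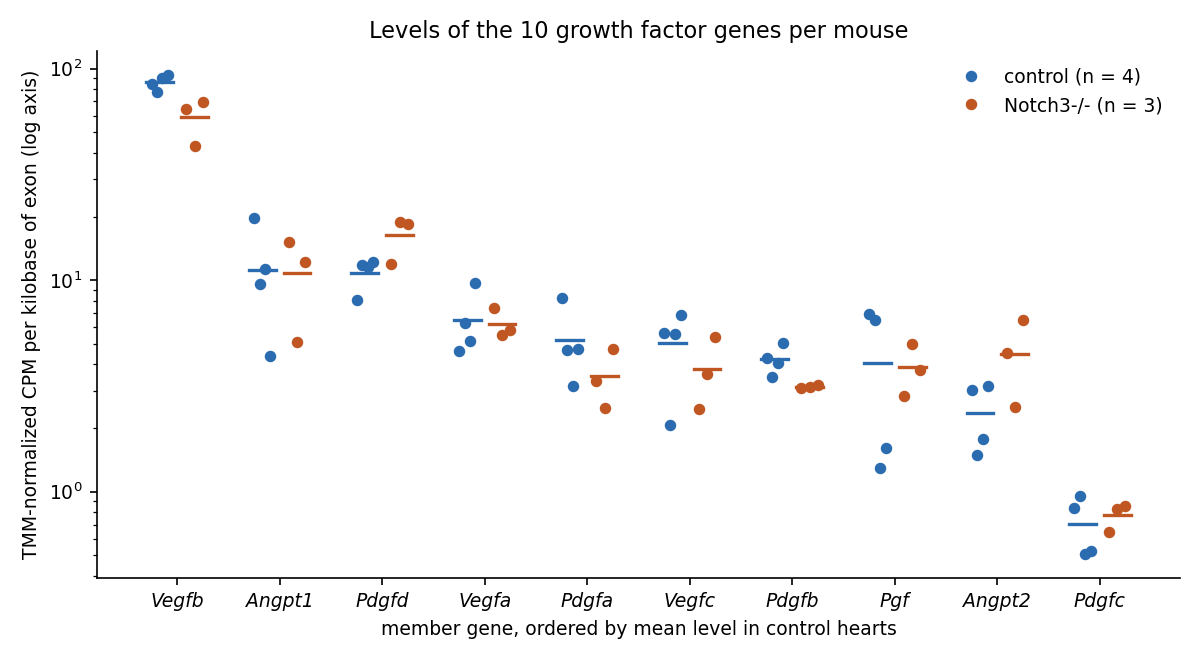
Levels of the 10 genes in CPM per kilobase of exon on a log axis, ordered by the control mean, with a point for each mouse (4 control, 3 *Notch3*-/-) and a line at each group mean. *Vegfb* stands above all other members in every heart and *Pdgfc* below them.

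All 10 members were among the 14324 genes that passed the expression filter. A gene was called where edgeR's false discovery rate (FDR, Benjamini-Hochberg adjustment over all genes tested) was below 0.05 and the fold change was at least 1.5. No member was called, against 0.00698% of the 14324 genes tested (1 gene, *Notch3*). DESeq2 also called 0 members, against 3.43% of 17393 genes (597 genes, 572 higher and 25 lower). Limma-voom called 0 members on the 21 libraries (3 from each heart, so not independent), against 0.216% of genes (31 genes), and 0 on the mice, against 0.00698% (1 gene). With an unadjusted edgeR p below 0.05 there were 3 members (*Vegfb* lower, *Angpt2* and *Pdgfd* higher), against 10.4% of all genes tested. The groups did not overlap for 2 members, *Vegfb* and *Pdgfb*, both lower in *Notch3*-/- hearts, against 8.53% of all genes tested in either direction. Estimates were higher for 3 members and lower for 7, with a median log2 fold change of -0.06, and the median over all genes tested was -0.003. In whole tissue, fewer cells of a type and less RNA per cell cannot be told apart, which applies to each difference given here.

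*Vegfb* (chr19:6982473-6987651, minus strand) had 135, 125, 144 and 150 CPM in control 1 to 4 and 104, 69.0 and 112 CPM in *Notch3*-/- 1 to 3. Each *Notch3*-/- heart was below the lowest control heart, control 2, and *Notch3*-/- 2 was lowest of all. The log2 fold change was -0.55 (95% confidence interval -0.95 to -0.15, SE 0.18), with an unadjusted p of 0.0122 and an FDR of 0.320 in edgeR. In the k-labelled mice it was -0.64 (edgeR FDR 0.734). No gene was called in the k-labelled mice, not even *Notch3*, so the FDR values of that fit given here cannot decide whether a member differed. The 2 hearts with abundant hepatocyte markers included the lowest *Vegfb* value. Without them the estimate was -0.31, which sets the single heart *Notch3*-/- 3 against the controls. With a hepatocyte score as a covariate it was -0.13 (edgeR FDR 0.998). Hepatocyte markers were abundant only in *Notch3*-/- 1 and 2, so this fit cannot separate the score from genotype. The same limit applies to every value with that covariate given here. The fit with the covariate also called no gene, not even *Notch3*, so its FDR values cannot decide whether a member differed. Without *Notch3*-/- 2 alone the *Vegfb* estimate was -0.36 (edgeR FDR 0.616), and without *Notch3*-/- 3 alone -0.69. All 7 cardiomyocyte markers also had lower estimates, with a median log2 fold change of -0.24 and none with an unadjusted p below 0.05 (*Ttn* -0.10 and *Myh6* -0.24). *Ttn* was at 0.036 without *Notch3*-/- 2 and at -0.36 without *Notch3*-/- 1, and *Myh6* at -0.14 and -0.39 in the same fits. The part of the cardiomyocyte markers in the *Vegfb* difference was not tested.

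*Vegfa* (chr17:46016993-46032369, minus strand), which lies 13.9 Mb from *Notch3* on the same chromosome, had 19.8, 27.0, 22.1 and 41.7 CPM in control hearts and 31.7, 23.6 and 25.0 CPM in *Notch3*-/- hearts. The *Notch3*-/- hearts lay within the control range, which was set by the high value of control 4. The log2 fold change was -0.05 (95% confidence interval -0.64 to 0.55, edgeR FDR 0.971), and without control 4 it was 0.21. *Vegfc* (chr8:54077606-54187096, plus strand), the ligand of FLT4 that acts on lymphatic endothelium, ranged from 5.06 to 16.7 CPM in control and from 6.01 to 13.2 CPM in *Notch3*-/- hearts. Its estimate of -0.37 (SE 0.42, edgeR FDR 0.809) was 0.13 without *Notch3*-/- 1 and 2 and 0.64 with the hepatocyte covariate. It was -0.69 in the k-labelled mice, -0.64 without control 2 and -0.71 without *Notch3*-/- 3, but -0.19 without control 4 and -0.14 without *Notch3*-/- 1.

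*Pgf* (chr12:85166635-85177790, minus strand), a FLT1 ligand, had 20.1, 18.8, 3.76 and 4.68 CPM in control 1 to 4 and 8.20, 14.5 and 11.0 CPM in *Notch3*-/- 1 to 3. The X-labelled control hearts were the highest of all and the k-labelled control hearts the lowest, with the 3 *Notch3*-/- hearts between them. The mean of the X-labelled control hearts was 4.60 times that of the k-labelled ones, the largest such ratio among the members in either direction. A difference of at least this size between those control hearts was found for 0.628% of genes tested. Over all mice the log2 fold change of *Pgf* was -0.07 (SE 0.56, edgeR FDR 0.982). Among k-labelled mice the estimate was 1.41, with an unadjusted p of 0.0114 and an FDR of 0.734 in edgeR, and with the hepatocyte covariate it was -0.65. The X-labelled mice were all controls, so the prefix had no comparison between genotypes of its own, and its part was not tested.

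*Angpt2* (chr8:18690263-18741562, minus strand) had 11.2, 5.48, 6.59 and 11.7 CPM in control 1 to 4 and 16.7, 9.25 and 23.8 CPM in *Notch3*-/- 1 to 3. *Notch3*-/- 1 and 3 were above every control heart, whereas *Notch3*-/- 2 was below control 1 and 4, so the groups overlapped. The log2 fold change was 0.95 (95% confidence interval 0.09 to 1.81, SE 0.38), the largest estimate among the members, with an unadjusted p of 0.0339 and an FDR of 0.438 in edgeR. Without the 2 hearts rich in hepatocyte markers the estimate was 1.48 (edgeR FDR 0.885), which sets the single heart *Notch3*-/- 3 against the controls and assumes that it varies as they do. Without *Notch3*-/- 3 it was 0.57 (edgeR FDR 0.543), and with the hepatocyte covariate 1.85 (edgeR FDR 0.998). It was 0.32 (edgeR FDR 0.929) when the libraries numbered 3, the highest of each *Notch3*-/- heart for *Angpt2*, were left out. *Angpt2* lies within the span of *Mcph1* on the other strand but shares no exon bases with it. The 7 endothelial markers (4 with higher and 3 with lower estimates) had a median log2 fold change of 0.01, none with an unadjusted p below 0.05, and summed to 869, 722, 829 and 1042 CPM in control and 855, 940 and 864 CPM in *Notch3*-/- hearts, with *Pecam1* (0.29) and *Egfl7* (0.01) the most abundant. *Pecam1* was at 0.18 without *Notch3*-/- 2, 0.079 without *Notch3*-/- 1 and 2 and 0.015 with the hepatocyte covariate.

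*Angpt1* (chr15:42424723-42676977, minus strand) had 102, 49.7, 59.0 and 22.7 CPM in control hearts and 79.2, 26.5 and 63.3 CPM in *Notch3*-/- hearts. Values spread widely within each genotype, and control 4 and *Notch3*-/- 2 were the low hearts. The log2 fold change was -0.05 (95% confidence interval -1.09 to 0.98, edgeR FDR 0.984), and without control 1 it was 0.35. An antisense gene, *Gm17473*, shares 737 exon bases with *Angpt1* and had 228 counts in the 7 mice, against 1616 for *Angpt1*. Whether counting used the strand was not stated, so reads of overlapping antisense partners cannot be told apart.

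The balance of the angiopoietins was also taken within each heart as log2 of the *Angpt2* count over the *Angpt1* count, with 1 added to each, which needs no library size. It was -3.15, -3.13, -3.12 and -0.94 in control 1 to 4 and -2.23, -1.50 and -1.40 in *Notch3*-/- 1 to 3. Control 1 to 3 were nearly equal and below all *Notch3*-/- hearts, and control 4, where *Angpt1* was lowest, was above them. The difference of 0.88 between the genotypes had p = 0.229 by exact permutation of all 35 groupings of the mice, two-sided (0.286 after Benjamini-Hochberg adjustment over 5 ratios), for which the smallest possible p is 0.0286. The difference was 1.42 without control 4 and 0.32 in the k-labelled mice. *Vegfb* over *Vegfa* was 2.37 ± 0.43 (SD, n = 4) in control and 1.80 ± 0.32 (SD, n = 3) in *Notch3*-/- hearts. That difference of -0.57 had an exact permutation p of 0.114 (adjusted 0.238), and it was -0.22 without *Notch3*-/- 1 and 2. *Pdgfa* over its receptor gene *Pdgfra* differed by -0.55 (exact permutation p = 0.114, adjusted 0.238), *Pdgfb* over *Pdgfrb* by -0.28 (exact permutation p = 0.143, adjusted 0.238) and *Pgf* over *Vegfa* by 0.25 (exact permutation p = 0.857). Without *Notch3*-/- 2 alone the *Pdgfa* difference was -0.35 and the *Pdgfb* difference -0.16, and in the k-labelled mice the *Pgf* difference was 1.52. For each of the 5 ratios the groups overlapped.

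*Pdgfb* (chr15:79995874-80014977, minus strand) had 17.8, 14.5, 16.9 and 21.04 CPM in control 1 to 4 and 12.8, 13.04 and 13.2 CPM in *Notch3*-/- 1 to 3. The 3 *Notch3*-/- hearts were close together and below every control heart, with control 2 nearest to them. The log2 fold change was -0.42 (95% confidence interval -0.90 to 0.05, SE 0.21), with an unadjusted p of 0.0749 and an FDR of 0.522 in edgeR. Without *Notch3*-/- 1 and 2 it was -0.40, which sets the single heart *Notch3*-/- 3 against the controls, and it was -0.15 (edgeR FDR 0.957) without the libraries numbered 3. *Pdgfa* (chr5:138976014-138997370, minus strand), a ligand of PDGFRA, ranged from 9.88 to 25.7 CPM in control and from 7.78 to 14.7 CPM in *Notch3*-/- hearts, with a log2 fold change of -0.55 (SE 0.36, edgeR FDR 0.630). Over the alternative fits the *Pdgfa* estimate ran from -0.97 with the libraries numbered 1 and 2 to -0.066 with the hepatocyte covariate. It was -0.16 in the k-labelled mice, -0.24 without control 1, -0.34 without *Notch3*-/- 2 and -0.83 without *Notch3*-/- 3. *Pdgfa* shares 813 exon bases with the antisense gene *6330403L08Rik*, which had 278 counts in the 7 mice. Platelets store PDGF, and of 5 platelet and megakaryocyte markers 3 were tested, all with lower estimates. The summed level of all 5 was 42.8, 28.5, 27.3 and 40.4 CPM in control and 21.04, 24.8 and 27.99 CPM in *Notch3*-/- hearts, with *Pf4* (-0.15) and *Itga2b* (-1.05) the most abundant of those tested. *Itga2b* was at -0.56 without *Notch3*-/- 1, at -0.62 without control 4 and at -1.58 without *Notch3*-/- 3. With the hepatocyte covariate *Itga2b* was at -0.28, without *Notch3*-/- 1 and 2 at -0.39 and with the libraries numbered 1 and 3 at -0.43. *Pf4* changed sign to 0.032 without control 1 and to 0.086 in the k-labelled mice. *Ppbp*, a platelet chemokine gene, had a log2 fold change of -2.16 (SE 0.71, edgeR FDR 0.322) that was -0.78 with the hepatocyte covariate. It had only 11, 8, 15 and 35 counts in control 1 to 4 and 4, 3 and 8 in *Notch3*-/- 1 to 3. *Ppbp* passed the expression filter only through control 1, 3 and 4, so the filter itself favoured a lower estimate. The part of these markers in the *Pdgfb* and *Pdgfa* values was not tested.

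*Pdgfd* (chr9:6168584-6378850, plus strand), which activates PDGFRB after proteolysis, had 25.4, 37.1, 36.2 and 38.4 CPM in control 1 to 4 and 37.7, 59.5 and 58.2 CPM in *Notch3*-/- 1 to 3. *Notch3*-/- 2 and 3 were above all control hearts, *Notch3*-/- 1 was just below control 4, and control 1 was the lowest. The log2 fold change was 0.60 (95% confidence interval 0.13 to 1.07, SE 0.21), with an unadjusted p of 0.0177 and an FDR of 0.357 in edgeR. The estimate was 0.47 in the k-labelled mice (edgeR FDR 0.756). It was 0.76 without *Notch3*-/- 1 and 2, where *Notch3*-/- 3 was the only heart of its genotype. *Pdgfc* (chr3:81036416-81214040, plus strand) had 8 to 23 counts per heart, and its log2 fold change of 0.13 (SE 0.36, edgeR FDR 0.935) was smaller than its SE. The *Pdgfc* estimate was 0.58 in the k-labelled mice, 0.43 with the libraries numbered 1 and 3 and -0.026 with those numbered 2 and 3.

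**Figure D2:**
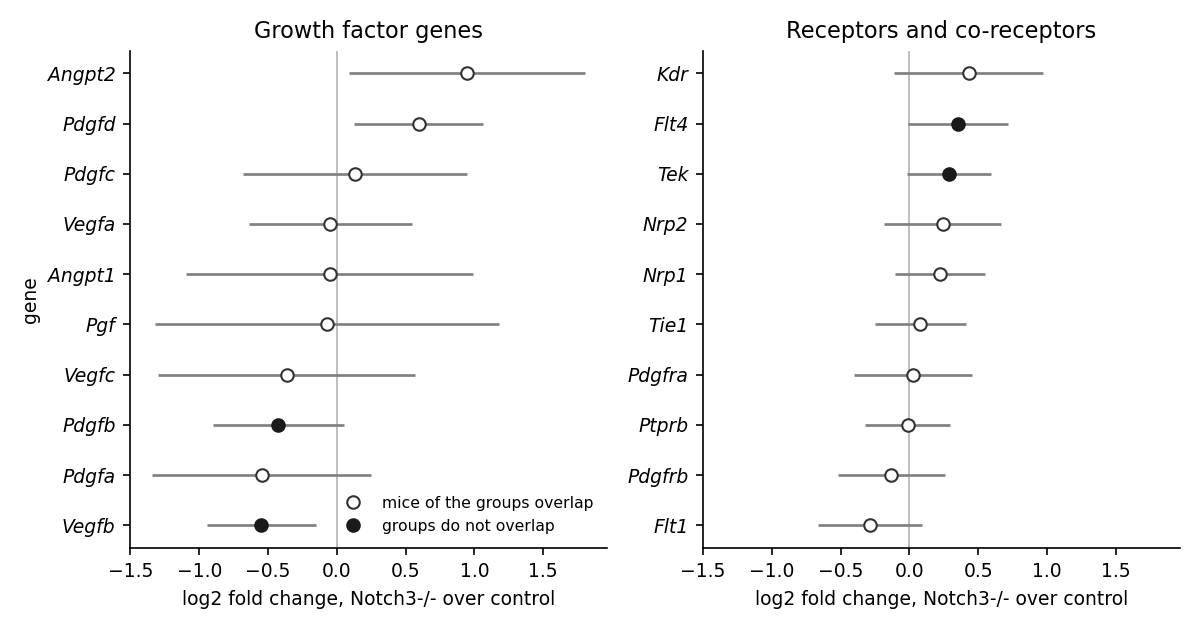
Log2 fold changes of the 10 growth factor genes and of 10 receptor and co-receptor genes, *Notch3*-/- over control, with 95% confidence intervals from edgeR. Filled points mark genes whose mice do not overlap between genotypes: *Vegfb*, *Pdgfb*, *Flt4* and *Tek*.

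*Vegfb* and *Pdgfd* had unadjusted p-values below 0.05 with opposite signs, and the 250 bases before their RefSeq starts (GRCm38.p6) are shown for that reason. The set of RefSeq starts used here held 7 members, with 10 starts in all, and did not include *Angpt1*, *Angpt2* and *Pdgfb*. Capitals mark matches, on either strand, to ACGTG and GCGTG (the 2 forms of the hypoxia response element core), TGGGAA (the core bound by RBPJ, the DNA-binding effector of Notch signalling) and TATAAA (the TATA box). The *Vegfb* window is chr19:6987652-6987901 and the *Pdgfd* window is chr9:6168236-6168485.
Vegfb: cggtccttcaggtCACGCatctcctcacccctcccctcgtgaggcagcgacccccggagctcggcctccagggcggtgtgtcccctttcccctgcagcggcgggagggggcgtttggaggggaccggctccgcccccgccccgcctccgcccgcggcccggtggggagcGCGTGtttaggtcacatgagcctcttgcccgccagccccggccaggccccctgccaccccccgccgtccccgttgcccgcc
Pdgfd: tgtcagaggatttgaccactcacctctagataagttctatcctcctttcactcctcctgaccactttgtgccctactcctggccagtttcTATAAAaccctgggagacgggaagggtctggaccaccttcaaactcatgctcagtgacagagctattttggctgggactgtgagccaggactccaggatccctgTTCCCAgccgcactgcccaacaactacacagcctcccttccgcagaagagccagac
The *Vegfb* window was 76.4% G and C, with 26 CpG pairs and 2 matches to GCGTG, 1 on each strand. The *Pdgfd* window was 53.6% G and C, with 3 CpG pairs, 1 match to TATAAA and 1 to TGGGAA on the opposite strand. Over 32851 promoter windows of this length the median was 52.4% G and C, and 16.6% held ACGTG, 28.2% GCGTG, 21.6% TGGGAA and 12.4% TATAAA. Among the members ACGTG was found at 1 of the 10 starts (*Vegfa*), GCGTG at 4 (*Vegfa*, *Vegfb*, *Pgf* and *Pdgfa*), TGGGAA at 4 (*Pdgfa*, *Pdgfd* and both of *Vegfa*) and TATAAA at 1 (*Pdgfd*). The ACGTG and GCGTG matches of *Vegfa* lay in the window chr17:46025164-46025413, inside the span of the gene. Its other window, chr17:46032378-46032627, lies before the gene and held 0 of either.

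The 3 technical libraries of a heart differed by more than counting error for most members. The chi-square per degree of freedom, which is near 1 where only counting error acts, ran from 0.576 for *Pgf* to 6.77 for *Vegfb*, with 5.68 for *Angpt2* and 5.01 for *Angpt1*. The median over 10728 genes with at least 10 CPM was 3.56, and 3 members were above it. For *Angpt2* the library numbered 3 was the highest of each *Notch3*-/- heart, at 31.3, 21.8 and 30.7 CPM. Of the 9 *Notch3*-/- libraries 4 were above all 12 control libraries for *Angpt2*, and 1 was below them all (*Notch3*-/- 2 library 1, 2.70 CPM). For *Pdgfd* 5 of the 9 were above all 12 control libraries, and for *Vegfb* 7 of the 9 were below all 12. The libraries of *Pgf* differed least, and every library of control 1 and 2 was above every library of control 3 and 4.

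**Figure D3:**
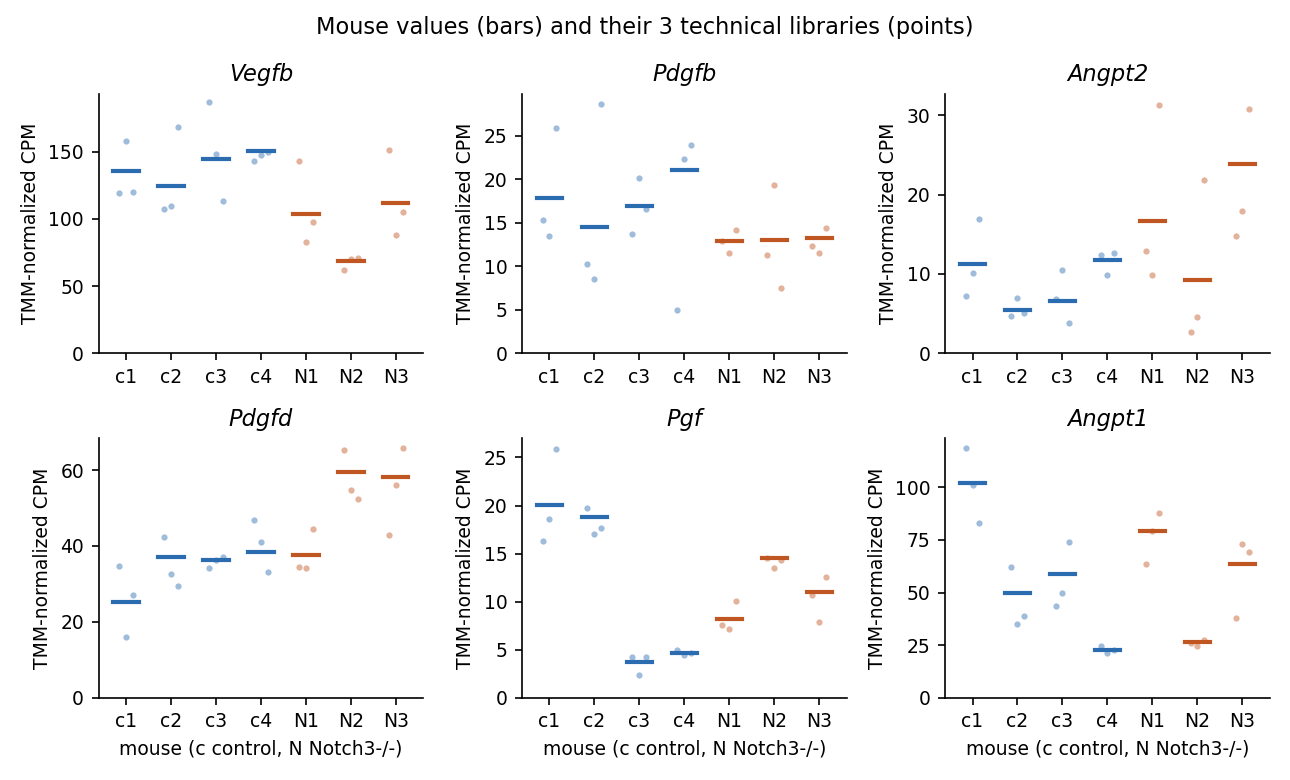
TMM-normalized CPM of 6 members in each mouse (bars, libraries summed) and in its 3 technical libraries (points), with control (c1 to c4) and *Notch3*-/- (N1 to N3) mice on the horizontal axis. *Vegfb* and *Pdgfb* bars of N1 to N3 lie below all control bars, and *Pgf* bars split between c1 and c2 and c3 and c4.

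The genes most alike to the leading member of each family were found by Pearson correlation over the 21 libraries, after removal of genotype means. These libraries share mice and differ in depth, and the values are descriptions. *Vegfb* was most like *Gnas* (r = 0.89, n = 21 libraries), *Gm20721* (r = 0.89) and *Mrpl4* (r = 0.88). *Angpt1* was most like *Tmx1* (r = 0.90), *Plekha5* (r = 0.86) and *Ccdc141* (r = 0.86). *Pdgfd* was most like *Rabif* (r = 0.79), *Tax1bp1* (r = 0.78) and *Ackr3* (r = 0.78).

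Among the 10 receptor and co-receptor genes none was called or had an unadjusted edgeR p below 0.05, against 10.4% of all genes tested with such a p. Estimates were higher for 7 and lower for 3, with a median log2 fold change of 0.15. *Nrp1*, a VEGF co-receptor, and *Kdr*, the main signalling receptor for VEGFA, were the most abundant in CPM, with log2 fold changes of 0.22 (SE 0.15, edgeR FDR 0.634) and 0.43 (SE 0.24, edgeR FDR 0.571). Over 20 alternative fits *Nrp1* ran from 0.046 in the k-labelled mice to 0.32 with the hepatocyte covariate, and *Kdr* from 0.088 to 1.00 in the same fits. Without control 2 they were 0.11 and 0.25. *Flt4* and *Tek*, named after their values were seen, were the 2 whose groups did not overlap, against 8.53% of all genes tested. *Tek*, the angiopoietin receptor gene, had 92.9, 84.9, 80.5 and 71.5 CPM in control and 93.2, 107 and 102 CPM in *Notch3*-/- hearts, for a log2 difference of 0.29 (SE 0.14, edgeR FDR 0.499). *Flt4* was between 39.4 and 53.1 CPM in control and between 55.4 and 65.2 CPM in *Notch3*-/- hearts, for a log2 difference of 0.35 (SE 0.16, edgeR FDR 0.490). Of the TEK ligand genes *Angpt2* had an estimate of 0.95 and *Angpt1* of -0.05, and of the FLT4 ligand genes *Vegfc* had -0.37 and *Vegfd* -0.32. Those of *Angpt1*, *Vegfc* and *Vegfd* changed sign without *Notch3*-/- 1 and 2.

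Of 6 VEGF-responsive endothelial genes 5 were tested, all with higher estimates and a median log2 fold change of 0.43. *Apln*, which encodes a peptide of endothelial tip cells, had 35.6, 31.4, 28.9 and 30.1 CPM in control and 39.6, 47.5 and 39.9 CPM in *Notch3*-/- hearts. Its groups did not overlap, against 8.53% of all genes tested in either direction. The log2 fold change of *Apln* was 0.43 (SE 0.15, edgeR FDR 0.361). *Rcan1* was at 50.1 and 43.8 CPM in the X-labelled control hearts and at 160 and 147 CPM in the k-labelled ones, and its estimate of 0.56 (edgeR FDR 0.720) was -0.06 in the k-labelled mice. *Nos3* had an estimate of 0.29 (edgeR FDR 0.6002), which was 0.15 without *Notch3*-/- 1 and -0.070 without *Notch3*-/- 1 and 2. The *Nos3* estimate also changed sign with the hepatocyte covariate. Hypoxia raises *Vegfa* through the factors encoded by *Hif1a* and *Epas1*, which had log2 fold changes of -0.03 and 0.04 (edgeR FDR 0.974 and 0.926). Of 9 hypoxia target genes 8 were tested, 5 with higher and 3 with lower estimates and a median of 0.02. *Egln3* alone among them had an unadjusted p below 0.05, with a log2 fold change of 0.59 (SE 0.23, edgeR FDR 0.422) that was 0.33 without *Notch3*-/- 1 and 0.40 in the k-labelled mice. The most abundant, *Bnip3* and *Pdk1*, had -0.16 and 0.03. Among 5 genes for proteases and cofactors that process the ligands, 4 had higher estimates and 1 lower, with *Furin* at 0.35 (edgeR FDR 0.622) and *Plat*, whose product cleaves PDGFC, at 0.19 (edgeR FDR 0.8287). *Furin* was at 0.19 without control 3 and at -0.34 with the hepatocyte covariate, and it also changed sign without *Notch3*-/- 1 and 2. *Plat* was at 0.015 without control 1 and at 0.052 in the k-labelled mice. Of the other ligand genes, *Vegfd* had an estimate of -0.32 (SE 0.59, edgeR FDR 0.892), and *Angpt4* was below the expression filter.

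Markers of the cells that make or receive these ligands are given with the members. Of 7 vascular smooth muscle markers 5 were tested, 2 with higher and 3 with lower estimates. The 2 below the filter had few counts and lower means in *Notch3*-/- hearts. *Cnn1* was at 0.84 against 1.79 CPM in control and *Lmod1* at 0.55 against 1.46 CPM. *Myh11* (-2.49, edgeR FDR 0.118) and *Tagln* (-0.93, edgeR FDR 0.396) had unadjusted p-values below 0.05, and the most abundant, *Smtn* and *Acta2*, had -0.22 and 0.15 (*Acta2* -0.73 without *Notch3*-/- 1). Of 6 pericyte markers, 2 had higher and 4 lower estimates, with *Abcc9*, among the most abundant, at -0.15 (-0.28 without *Notch3*-/- 1 and -0.016 without *Notch3*-/- 2). *Rgs5* (-0.34, edgeR FDR 0.249) and *Cspg4* (-0.63, edgeR FDR 0.339) were lower with no overlap between groups, against 8.53% of all genes tested in either direction. *Pdgfb*, whose product acts on pericytes, was also lower without overlap, as were *Myh11* and *Dcn*. *Col1a1*, *Col3a1* and *Mrc1* were higher without overlap. *Vtn*, also in the pericyte list, was 295 and 697 CPM in *Notch3*-/- 1 and 2 and 54.3 CPM in *Notch3*-/- 3, as the hepatocyte markers were. Of 7 fibroblast markers 4 had higher and 3 lower estimates, and *Col1a1* (0.62, edgeR FDR 0.2003), *Col1a2* (0.41, edgeR FDR 0.437) and *Col3a1* (0.79, edgeR FDR 0.126) were higher and *Dcn* (-0.26, edgeR FDR 0.476) lower with unadjusted p-values below 0.05, against 10.4% of all genes tested. *Col1a2* was at 0.23 without *Notch3*-/- 3 and at 0.73 with the hepatocyte covariate. Of 7 macrophage markers 5 had higher and 2 lower estimates, with *Mrc1* (0.37, edgeR FDR 0.428) higher at that level and the most abundant, *Csf1r* and *C1qb*, at 0.22 and 0.08. No adipocyte marker passed the filter. The part of these cell types in the members' values was not tested.

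**Figure D4:**
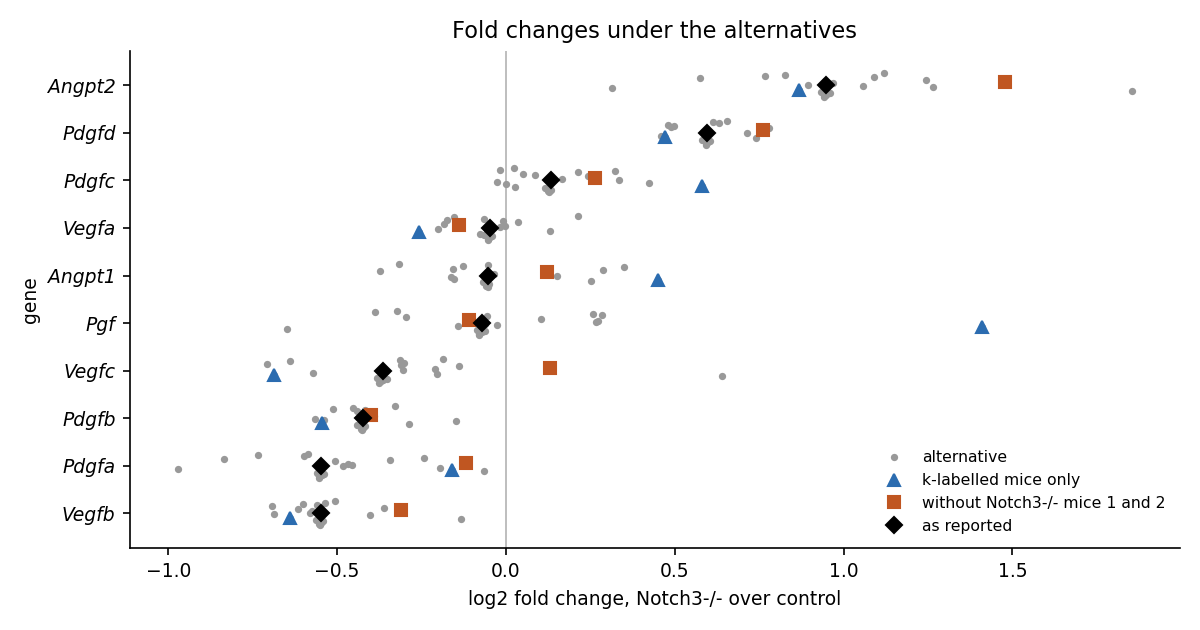
Log2 fold changes of the 10 members, *Notch3*-/- over control, as reported (diamonds) and under 20 alternative fits (points), with the k-labelled mice alone (triangles) and the fit without *Notch3*-/- 1 and 2 (squares) marked. *Angpt2* and *Pdgfd* stay above 0 and *Vegfb*, *Pdgfb* and *Pdgfa* below 0 under each, and the other 5 cross 0 in at least 1.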

How the data were processed

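The authors deposited counts, whole numbers of reads per Ensembl gene and library, without normalization. The submitters' processing notes name CASAVA and mm10, and the aligner and counter are not given in the sources used here. ERCC spike-in sequences (92, with 34 counts) were left out. Counts of the 3 technical libraries were summed per mouse. Genotypes were compared with edgeR 4.0.16 in R 4.3.3 (filterByExpr, TMM, quasi-likelihood F test, genotype as the only term), with Benjamini-Hochberg adjustment over all genes tested. P-values of the fits on mice measure the spread between mice. Reads were amplified by PCR without molecular identifiers. Coordinates and exon lengths came from GENCODE vM21 (GRCm38, the same assembly as mm10). Members and gene lists were chosen with earlier results of these data known. Named genes were all members and, of each list, those called, those with an unadjusted p below 0.05 and the 2 most abundant in control hearts, with Flt4 and Tek added after their values were seen. Alternatives were DESeq2 1.42.0, limma-voom (limma 3.58.1) on mice and on libraries, RLE factors, TMM factors without hepatocyte genes, other count filters, each mouse left out, the k-labelled mice alone, a hepatocyte score as covariate, and, after seeing the data, fits without Notch3-/- 1 and 2 or with 2 of the 3 libraries of each heart, and the ratios in the k-labelled mice. The fits were tested on simulated data, where limma-voom on libraries exceeded the limit on false calls set for all fits, and the limit was then raised for it alone.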

Additional observations from a re-analysis of the deposited data

Results flagged for a closer look

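*Pdgfd* in control 1, at 25.4 CPM, was far from the other 3 control hearts. The log2 ratio of *Angpt2* over *Angpt1* in control 4, at -0.94, was far above those of control 1 to 3. Such gaps were looked for in 15 groups of 4 control hearts, and chance gives about 1 in 20.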

How the results depend on the processing

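No member was called under any of the 20 alternative fits. The k-labelled fit and the fit with the hepatocyte covariate called no gene at all. They missed even the targeted gene *Notch3*, whose log2 fold change lay between -3.52 and -3.00 over the alternative fits. The absence of called members in those fits therefore cannot decide whether a member differed. The count over all genes was 597 with DESeq2, 639 with every gene of at least 1 count, 0 in the k-labelled mice, 0 with the hepatocyte covariate, and 1 to 936 as each mouse was left out (936 without *Notch3*-/- 3). With limma-voom on 21 libraries, with the mouse as a block and the technical number as a term, the count was 31. Same-numbered libraries did not deviate together (mean r -0.02, range -0.30 to 0.22). In simulated data this fit called more unchanged genes than the others. *Vegfb*, *Angpt2*, *Pdgfa*, *Pdgfb* and *Pdgfd* kept their direction in every fit. Direction was lost in 19 of 199 member estimates, and the cause was not tested. In the k-labelled mice log2 fold changes were 1.41 for *Pgf*, 0.45 for *Angpt1* and -0.064 for *Rcan1*. With the hepatocyte covariate they were 0.64 for *Vegfc*, 0.25 for *Angpt1*, 1.20 for *Vegfd*, -0.34 for *Furin* and -0.020 for *Nos3*. Without *Notch3*-/- 1 and 2, chosen after seeing the data, they were 0.13 for *Vegfc*, 0.12 for *Angpt1*, 0.73 for *Vegfd*, -0.10 for *Furin*, -0.0069 for *Rcan1* and -0.070 for *Nos3*. With the libraries numbered 1 and 2 only, also chosen after seeing the data, they were 0.13 for *Vegfa*, 0.090 for *Vegfd*, 0.025 for *Hif1a*, -0.0018 for *Epas1* and -0.041 for *Pdk1*, with numbers 1 and 3 -0.0099 for *Pdk1*, and with numbers 2 and 3 0.15 for *Angpt1* and -0.026 for *Pdgfc*. For *Pgf* limma-voom gave 0.27 on libraries and 0.27 on mice. As each mouse was left out, the range was -0.18 to 0.21 for *Vegfa*, -0.39 to 0.28 for *Pgf*, -0.37 to 0.35 for *Angpt1*, -0.017 to 0.32 for *Pdgfc*, -1.51 to 0.12 for *Vegfd*, -0.18 to 0.060 for *Hif1a*, -0.026 to 0.098 for *Epas1* and -0.036 to 0.11 for *Pdk1*. The *Pgf* over *Vegfa* ratio difference ranged from -0.27 to 0.76 in the same way. Over all alternative fits the range was 0.33 to 0.77 for *Egln3*, 0.015 to 0.34 for *Plat*, 0.28 to 0.69 for *Apln*, -0.34 to 0.54 for *Furin*, -0.064 to 0.86 for *Rcan1*, -0.070 to 0.44 for *Nos3*, -0.24 to -0.096 for *Bnip3*, 0.19 to 0.54 for *Flt4*, 0.20 to 0.42 for *Tek*, 0.46 to 0.78 for *Pdgfd*, -0.56 to -0.15 for *Pdgfb*, -0.69 to -0.13 for *Vegfb*, 0.32 to 1.85 for *Angpt2*, -0.26 to 0.21 for *Vegfa* and -0.37 to 0.45 for *Angpt1*. In the same fits, run for these genes after seeing the data, *Flt4*, *Tek* and 21 of 31 named marker genes kept their direction wherever tested, and the exceptions were *Ttn*, *Egfl7*, *Acta2*, *Vtn*, *C1qb*, *Pf4*, *Ttr*, *Apoh*, *Hpx* and *Ahsg*. The hepatocyte markers *Ttr*, *Apoh*, *Hpx* and *Ahsg* changed direction only with the hepatocyte covariate, which takes out the hepatocyte signal and cannot decide their direction. Ranges were -0.39 to -0.14 for *Myh6*, -0.30 to -0.097 for *Smtn*, -0.73 to 0.68 for *Acta2*, -3.00 to -1.89 for *Myh11*, -1.29 to -0.73 for *Tagln*, -0.43 to -0.28 for *Rgs5*, -0.95 to -0.50 for *Cspg4*, -0.71 to 3.07 for *Vtn*, -0.35 to -0.16 for *Dcn*, 0.47 to 0.90 for *Col1a1*, 0.65 to 1.16 for *Col3a1*, 0.23 to 0.51 for *Mrc1*, 0.018 to 0.44 for *Csf1r*, -0.12 to 0.32 for *C1qb* and -0.30 to 0.086 for *Pf4*. *Pdgfc* had the fewest counts of the members, 110 in all mice.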
